A study of Mus musculus with 15 samples.

Results

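The genes described here encode the proteasome, its activators and inhibitor, and the chaperones that assemble it. They are the protein-coding genes of the deposited count table whose symbol begins with Psma, Psmb, Psmc, Psmd, Psme, Psmf or Psmg followed by a digit. This rule took 50 of 54532 genes in the table, of which 22046 were protein-coding. By role they were 8 alpha-ring subunits, 7 constitutive beta-ring subunits, 3 immunoproteasome subunits, 1 thymoproteasome subunit, 6 ATPases and 11 non-ATPase subunits of the regulatory particle, 3 chaperones of that particle, 5 activator genes, 1 inhibitor and 4 chaperones of the core. The remaining match, Psmc3ip, encodes a meiotic recombination factor and not a proteasome subunit. Of the 50 genes, 48 passed the filter on low counts and were tested. Psmb11, the thymus-specific beta subunit, had 0 counts in every library, which allows at most 0.18 CPM (read counts scaled to library size) in the smallest library, and Psmc3ip was too low to test.

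RNA was measured by sequencing in livers of wild-type mice, in 15 libraries. Methotrexate (MTX) blocks folate metabolism and can injure the liver. The MTX+nitrate group (5 libraries) had water with 2 mM nitrate for 5 days and a single intraperitoneal dose of 20 mg/kg MTX, with the liver taken 24 h later, and the study asked how nitrate alters the liver injury that MTX causes. The MTX group (5 libraries) is labelled with MTX alone. The design text gives a single dose for the study, so 20 mg/kg and 24 h were taken to hold for the MTX group too. The control group (5 libraries) is labelled as control with no further agent. Every group was wild-type, none received nitrate alone, and age, sex and strain are not stated in the labels. The labels do not say that each library came from a separate mouse, so the p-values below measure the spread between libraries.

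The proteasome is the protease that degrades proteins tagged with ubiquitin. Its barrel-shaped 20S core stacks outer alpha rings, which gate the entrance, on inner beta rings, which hold the catalytic sites, and the 19S regulatory particle binds ubiquitin chains, unfolds the substrate with its ATPases and feeds it into the core. Interferon-inducible immunoproteasome subunits replace the catalytic beta subunits in immune cells and inflamed tissue, where they alter which peptides are made for display on MHC class I. In liver, as elsewhere, the transcription factor Nfe2l1 is known to raise many subunit genes together when proteasome capacity falls short.

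Library totals ran from 16663967 to 19274497 counts, and the 48 tested genes with the other 2 members took 0.282% to 0.382% of them. Levels are CPM with TMM scaling between libraries, log2 fold changes are given ± SE, and each adjusted p comes from edgeR's quasi-likelihood test with Benjamini-Hochberg adjustment over 14219 genes. Genes below 0.05 were called, and a call is edgeR's unless another tool is named. MTX library 5 stood apart from the other MTX libraries in these genes, and counts of calls and the genes it touches most are also given without it. The comparisons of MTX with control and of MTX+nitrate with MTX share the MTX libraries, so opposite directions in the 2 comparisons are partly one measurement. In whole liver, fewer cells of a type and less RNA per cell cannot be told apart.

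The promoters of 3 genes are printed because their genes carry the main contrasts. Psmb3 had the highest log2 fold change of the tested members under MTX, Psma3 changed in both comparisons, and Psmb9 had values of the opposite sign in both without being called. Each window runs from 250 bases before to 50 bases after the gene start, 5′ to 3′ on the gene's strand, from RefSeq on GRCm38.p6, and capitals mark motif matches.
Psmb3, chr11:97703184-97703483, plus strand: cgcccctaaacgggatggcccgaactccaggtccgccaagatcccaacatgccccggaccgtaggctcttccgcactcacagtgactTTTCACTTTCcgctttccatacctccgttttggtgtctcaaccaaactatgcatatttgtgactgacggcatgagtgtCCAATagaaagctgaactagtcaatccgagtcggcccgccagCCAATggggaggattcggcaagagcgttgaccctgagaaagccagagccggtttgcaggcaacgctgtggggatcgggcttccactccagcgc
Psma3, chr12:70974373-70974672, plus strand: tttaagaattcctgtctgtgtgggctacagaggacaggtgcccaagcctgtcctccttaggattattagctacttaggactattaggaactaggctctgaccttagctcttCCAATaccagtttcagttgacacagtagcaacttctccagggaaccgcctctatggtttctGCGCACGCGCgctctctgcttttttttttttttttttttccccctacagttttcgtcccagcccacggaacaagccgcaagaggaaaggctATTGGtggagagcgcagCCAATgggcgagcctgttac
Psmb9, chr17:34187281-34187580, minus strand: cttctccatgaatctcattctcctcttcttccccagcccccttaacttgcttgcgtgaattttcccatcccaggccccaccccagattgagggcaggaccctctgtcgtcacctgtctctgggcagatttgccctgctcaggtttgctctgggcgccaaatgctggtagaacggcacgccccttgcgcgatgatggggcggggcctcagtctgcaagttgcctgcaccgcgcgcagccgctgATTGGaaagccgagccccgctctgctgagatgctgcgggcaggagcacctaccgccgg

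The capitals in the Psmb3 window are a match to the core of the interferon-stimulated response element, GAAA and GAAA with any 2 bases between, on the opposite strand (TTTCACTTTC), and 2 copies of the CCAAT box. The Psma3 window holds 3 CCAAT boxes, of which 1 is on the opposite strand (ATTGG), and 1 match to the site of nuclear respiratory factor 1, GCGCA and GCGC with any 1 base between, a different protein from Nfe2l1. The Psmb9 window holds a CCAAT box on the opposite strand, and no match to the interferon element was found in these 300 bases. No matches overlapped each other in these 3 windows. Both strands were searched in all windows, and a palindromic match was counted once per promoter.

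A RefSeq window was present for 42 of the 50 members. The nuclear respiratory factor 1 site occurred in 3 of 11 core subunit promoters (27.3%), in 3 of 14 regulatory particle promoters (21.4%) and in 4.78% of 27025 promoters of all genes. CCAAT occurred in 6 of the 11 core promoters (54.5%), in 4 of the 14 regulatory ones (28.6%) and in 37.9% of all promoters. TGACNNNGC, the core of the antioxidant response element bound by Nfe2l1 and Nfe2l2, occurred in 6 of the 42 member promoters (14.3%) and in 12.5% of all. The interferon element occurred in 5 of 42 (11.9%), those of Psmb3, Psmd4, Psmd9, Psme1 and Psmg4, and in 3.49% of all. These matches describe letters in short windows and are not evidence of binding.

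MTX against control asked how the drug alone changed these genes. Under MTX 8 of 48 tested members rose and 0 fell, against 2.06% of all tested genes called higher and 1.6% called lower. With edgeR's unadjusted p under 0.05, 38 members were higher and 0 lower, against 11.5% and 10.5% of all tested genes. DESeq2 called 17 members higher, those 8 with Psma2, Psma4, Psma5, Psma6, Psmb5, Psmb10, Psmc3, Psmd4 and Psmd14, and DESeq2 and limma-voom called 0 lower. Of the 8 that edgeR called, 7 were core subunits and 1, Psmd13, belonged to the regulatory particle. The log2 fold change was above 0 for 44 of 48 members (91.7%), against 49.9% of all tested genes, with a median of 0.32 against -0.00074 over all genes. All 5 MTX libraries lay above all 5 control libraries for 11 members, against 3.15% of all tested genes.

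MTX+nitrate against MTX asked what nitrate changed on top of MTX. In it 10 of 48 members fell and 0 rose, against 1.94% of all tested genes called lower and 2.37% called higher. With edgeR's unadjusted p under 0.05, 26 members were lower and 0 higher, against 10.8% and 11.6% of all tested genes. DESeq2 called 16 members lower, those 10 with Psma4, Psmb6, Psmc3, Psmd6, Psmd8 and Psme2, and DESeq2 and limma-voom called 0 higher. Of the 10 that edgeR called, 8 were core subunits and 2, Psmc6 and Psmd13, belonged to the regulatory particle. The log2 fold change was below 0 for 47 of 48 members (97.9%), against 48.7% of all tested genes, with a median of -0.27 against 0.0084 over all genes. All 5 MTX+nitrate libraries lay below all 5 MTX libraries for 8 members, against 2.95% of all tested genes.

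MTX+nitrate against control gave 0 members called higher or lower, against 1.41% and 0.992% of all tested genes. At an unadjusted p under 0.05, 3 members were higher (Psmb10, Psmd3 and Psme1) and 2 lower (Psmd9 and Psme4), against 9.33% and 8.25% of all tested genes, while DESeq2 called 1 higher, Psmb10, and limma-voom 0. The median log2 fold change of the members was 0.049. All MTX+nitrate libraries lay below all control libraries for 1 member, Psme4, against 2.57% of all tested genes. A comparison that misses the threshold does not show that these groups were alike.

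**Figure D1:**
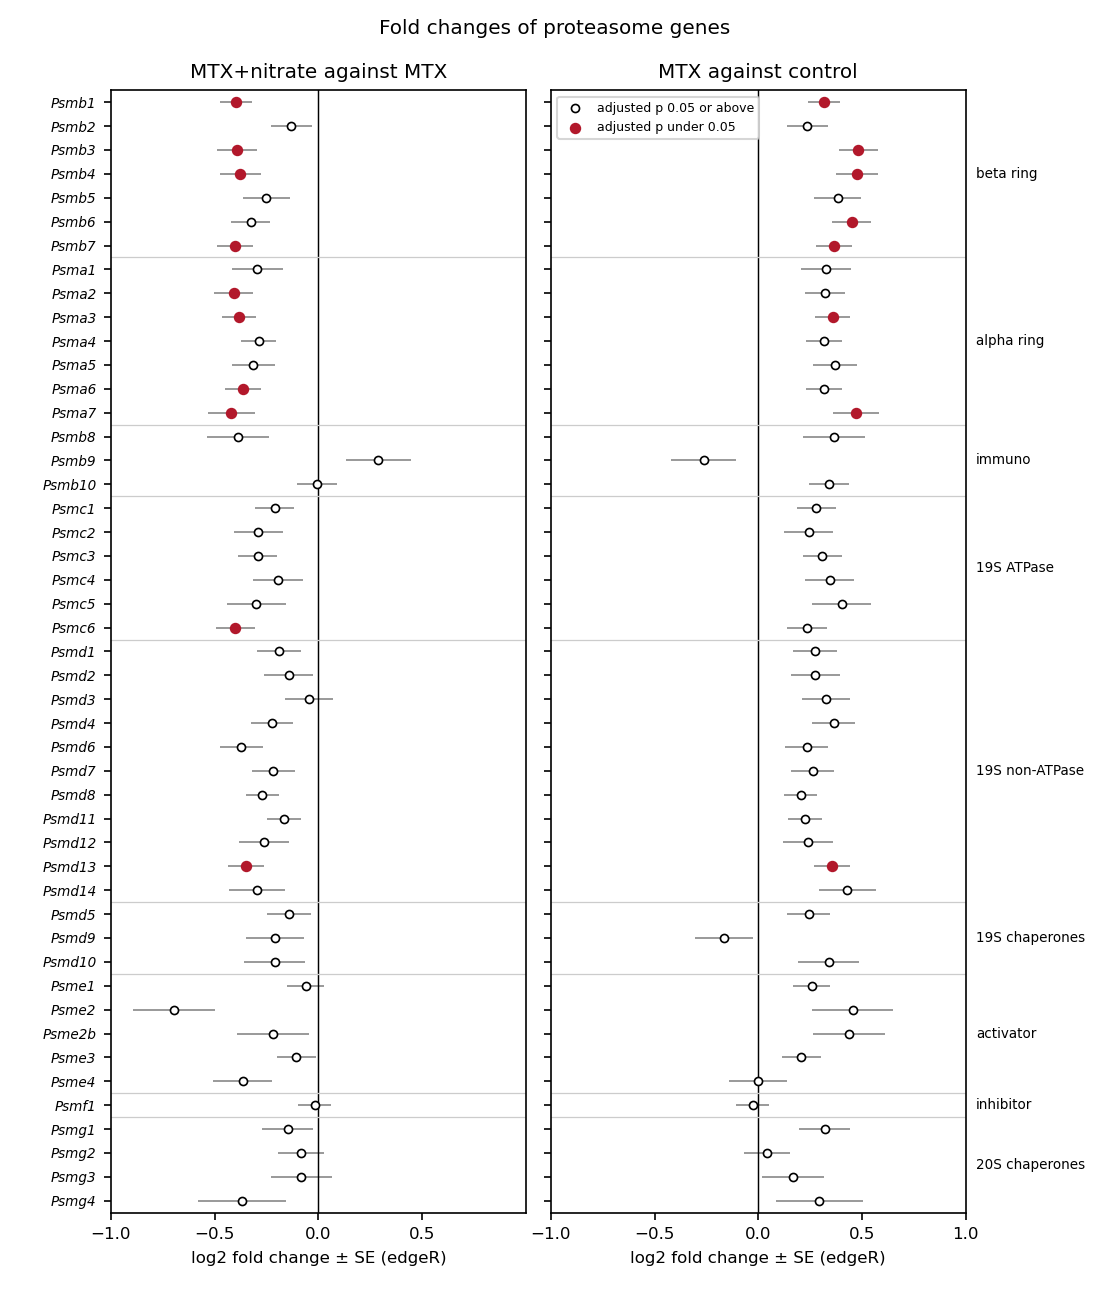
Log2 fold change ± SE from edgeR for 47 members (Psma8 is left out as near 0 CPM), MTX+nitrate against MTX on the left and MTX against control on the right, with genes called at an adjusted p under 0.05 filled in red. Filled points lie mostly in the beta and alpha rings, and Psmb9 alone is right of 0 on the left panel.

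Among the beta-ring subunits 5 of 7 rose under MTX and 4 of 7 fell in MTX+nitrate relative to MTX. The shares of all tested genes were 2.06% and 1.94%. At an unadjusted p under 0.05 the numbers were 7 and 6, against 11.5% and 10.8% of all tested genes. Psmb3, a structural subunit without a catalytic site, had 57.7, 63.8, 59.98, 64.9 and 68.4 CPM in MTX+nitrate libraries 1 to 5, 85.1, 89.9, 93.6, 77.98 and 66.5 CPM in MTX libraries and 51.5, 58.9, 64.4, 57.4 and 63.3 CPM in control libraries. Every MTX library was above every control library, and MTX library 5 fell inside the MTX+nitrate range. Its log2 fold change was 0.48 ± 0.095 for MTX against control (adjusted p = 0.0165) and -0.39 ± 0.095 for MTX+nitrate against MTX (adjusted p = 0.0312).

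Psmb1, another structural subunit, had 106, 105, 102, 96.9 and 114 CPM in MTX+nitrate libraries, 129.9, 134, 159, 135 and 132 CPM in MTX libraries and 103, 108, 115, 107 and 120.4 CPM in control libraries. Here the MTX group overlapped neither of the others, and MTX library 3 was the highest by a clear gap. The change was 0.32 ± 0.078 for MTX against control (adjusted p = 0.0344) and -0.40 ± 0.078 for MTX+nitrate against MTX (adjusted p = 0.0181). Psmb4, the most abundant core subunit per kilobase of transcript, had 119.8, 131, 147, 141 and 143 CPM in MTX+nitrate libraries, 180.02, 196, 200.02, 171 and 137 CPM in MTX libraries and 115, 121, 142, 129 and 131 CPM in control libraries. MTX library 5 lay within both other groups' ranges, and the other MTX libraries lay above all of them. Its log2 fold changes were 0.48 ± 0.10 for MTX against control (adjusted p = 0.0225) and -0.38 ± 0.10 for MTX+nitrate against MTX (adjusted p = 0.0453).

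Of the constitutive catalytic subunits, Psmb6 cleaves after acidic residues, Psmb7 after basic ones and Psmb5 after hydrophobic ones. Psmb6 had 79.1, 80.8, 87.5, 84.4 and 89.99 CPM in MTX+nitrate libraries, 109, 113, 117, 107 and 83.3 CPM in MTX libraries and 66.4, 82.5, 82.6, 81.1 and 74.8 CPM in control libraries. The MTX and control groups did not overlap, though MTX library 5 came within 1 CPM of the highest control. Psmb6 rose under MTX (0.45 ± 0.094, adjusted p = 0.0210), and its value for MTX+nitrate against MTX was -0.33 ± 0.094 (adjusted p = 0.0573). Psmb7 had 68.00, 63.03, 65.3, 55.7 and 70.6 CPM in MTX+nitrate libraries, 86.5, 88.1, 96.2, 82.5 and 72.7 CPM in MTX libraries and 63.6, 71.8, 60.9, 67.99 and 66.4 CPM in control libraries. The MTX libraries were above every library of both other groups. Psmb7 rose under MTX (0.37 ± 0.086, adjusted p = 0.0320) and fell in MTX+nitrate relative to MTX (-0.40 ± 0.086, adjusted p = 0.0240). Its gene span, introns included as in all overlaps given here, shares 6571 bases with Nek6 on the opposite strand. Without a stated strand setting, reads in any exon bases they share cannot be told apart. How many exon bases they share was not measured. Psmb5, the target of the drug bortezomib, had 24.1, 24.9, 25.4, 25.7 and 28.5 CPM in MTX+nitrate libraries, 28.2, 33.6, 35.8, 29.98 and 25.4 CPM in MTX libraries and 18.8, 28.9, 22.1, 24.6 and 23.1 CPM in control libraries. Control library 2 stood among the MTX values, and Psmb5 was not called in MTX against control (0.38, adjusted p = 0.0674) or in MTX+nitrate against MTX (-0.25, adjusted p = 0.199). Psmb2, the remaining beta subunit, was not called in either (0.24 and -0.13, adjusted p = 0.174 and 0.463).

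In the alpha rings, 2 of 8 subunits rose under MTX and 4 of 8 fell in MTX+nitrate relative to MTX. The shares of all tested genes were 2.06% and 1.94%. At an unadjusted p under 0.05 the numbers were 7 and 7, against 11.5% and 10.8% of all tested genes. Psma3 had 54.3, 58.4, 58.2, 62.8 and 66.5 CPM in MTX+nitrate libraries, 75.7, 85.2, 88.6, 75.7 and 66.3 CPM in MTX libraries and 60.96, 64.05, 58.2, 62.3 and 59.9 CPM in control libraries. All MTX libraries exceeded all controls, and only MTX library 5 touched the MTX+nitrate range. Its log2 fold change was 0.36 ± 0.084 for MTX against control (adjusted p = 0.0309) and -0.38 ± 0.084 for MTX+nitrate against MTX (adjusted p = 0.0245). Psma7 had 76.02, 77.1, 87.1, 76.7 and 91.97 CPM in MTX+nitrate libraries, 98.99, 122, 132, 111 and 82.5 CPM in MTX libraries and 71.4, 75.6, 86.7, 76.3 and 84.7 CPM in control libraries. Again MTX library 5 sat inside both other ranges, and MTX library 3 was the highest of all. Psma7 rose under MTX (0.47 ± 0.11, adjusted p = 0.0325) and fell in MTX+nitrate relative to MTX (-0.42 ± 0.11, adjusted p = 0.0454).

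Psma2 and Psma6 were called in the nitrate comparison but not against control. Psma2 had 46.7, 43.4, 48.3, 49.4 and 55.1 CPM in MTX+nitrate libraries, 66.8, 72.2, 68.9, 56.4 and 58.1 CPM in MTX libraries and 47.9, 56.9, 44.6, 51.1 and 57.8 CPM in control libraries. Psma6 had 74.7, 73.3, 69.8, 61.8 and 79.8 CPM in MTX+nitrate libraries, 88.7, 95.97, 105, 85.5 and 86.9 CPM in MTX libraries and 66.2, 76.7, 71.8, 75.5 and 81.1 CPM in control libraries. For both genes every MTX+nitrate library was below every MTX library. Psma2 fell in MTX+nitrate relative to MTX (-0.41 ± 0.10, adjusted p = 0.0299) and stood at 0.32 in MTX against control (adjusted p = 0.0690). Psma6 fell likewise (-0.36 ± 0.086, adjusted p = 0.0306) and stood at 0.32 in MTX against control (adjusted p = 0.0518). Psma2 shares 8943 bases with AW209491 on the same strand, where counting can split or drop reads.

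Psma1, Psma4 and Psma5 had log2 fold changes of 0.33, 0.32 and 0.37 in MTX against control and were not called (adjusted p = 0.128, 0.0520 and 0.0589). The germ-cell alpha subunit Psma8 averaged 0.894 ± 0.351 CPM in MTX+nitrate, 1.04 ± 0.823 CPM in MTX and 1.01 ± 0.773 CPM in control libraries (SD, n = 5 each). Of 4 markers of testis germ cells and thymic cortex, the germ-cell marker Ddx4 and the thymic cortex marker Foxn1 were at 0 in every library. The others had counts in some libraries, so the list was not wholly absent. Only 1 of the 4 passed the filter, with a log2 fold change of -0.96 in MTX against control. It was lower there at an unadjusted p under 0.05 with edgeR, against 10.5% of all tested genes. No tool called it in any comparison.

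**Figure D2:**
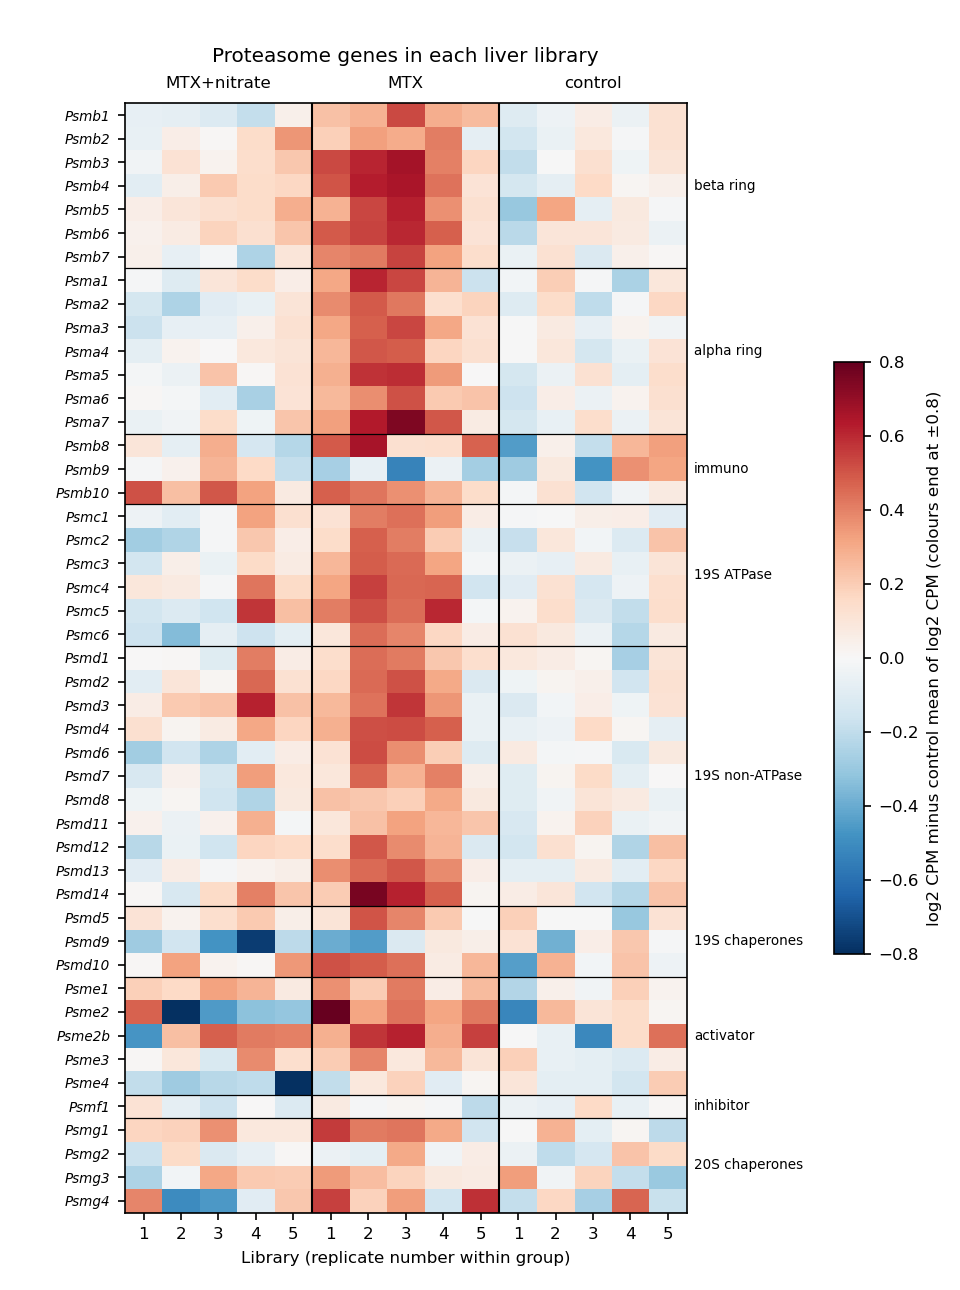
Each cell is the log2 CPM of 1 member in 1 library minus the mean log2 CPM of that member in the 5 control libraries, with libraries of MTX+nitrate, MTX and control from left to right and members grouped by role. MTX libraries 2 and 3 are red through the core and regulatory particle, MTX library 5 is pale, and MTX+nitrate library 4 is red in the regulatory particle but not in the core.

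In the 19S regulatory particle 1 of 17 subunits, Psmd13, rose under MTX, against 2.06% of all tested genes. All 17 had a log2 fold change above 0, with a median of 0.28. At an unadjusted p under 0.05, 15 of the 17 were higher and 0 lower, against 11.5% and 10.5% of all tested genes. At that p all 14 core subunits without Psma8 were also higher, so the gap in calls narrowed with the looser threshold. The median of those 14 was larger, at 0.36. All MTX libraries lay above all controls for 7 of the 14 and for 2 of the 17 regulatory subunits, against 3.15% of all tested genes. Psmd13, a subunit of the lid that covers the particle, had 53.8, 59.6, 56.9, 58.4 and 59.02 CPM in MTX+nitrate libraries, 74.01, 78.2, 80.8, 74.2 and 59.5 CPM in MTX libraries and 54.2, 54.3, 60.1, 53.9 and 64.3 CPM in control libraries. MTX library 5 lay within the range of both other groups, and the remaining MTX libraries lay above them. Psmd13 rose under MTX (0.35 ± 0.085, adjusted p = 0.0330) and fell in MTX+nitrate relative to MTX (-0.35 ± 0.085, adjusted p = 0.0322). It overlaps Sirt3 over 342 bases on the opposite strand and the pseudogene Gm15542 on its own strand.

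In MTX+nitrate against MTX, 2 of the 17 fell, Psmd13 and Psmc6, against 1.94% of all tested genes. All 17 had a log2 fold change below 0, with a median of -0.26. At an unadjusted p under 0.05, 10 of the 17 were lower and 0 higher, against 10.8% and 11.6% of all tested genes. In the core, 13 of 14 subunits without Psma8 were lower at that p, with a median of -0.37. Psmc6, an ATPase of the base, had 60.97, 53.8, 65.2, 61.02 and 64.9 CPM in MTX+nitrate libraries, 72.9, 93.3, 89.6, 76.8 and 71.3 CPM in MTX libraries and 74.4, 72.3, 66.3, 58.5 and 71.8 CPM in control libraries. The MTX+nitrate values were all below the MTX values, while MTX and control overlapped. Psmc6 fell in MTX+nitrate relative to MTX (-0.40 ± 0.095, adjusted p = 0.0302), and MTX against control gave 0.23 (adjusted p = 0.160). Psmc3, another base ATPase, had 82.7, 94.6, 88.3, 102 and 96.1 CPM in MTX+nitrate libraries, 110.5, 128, 125, 114 and 90.7 CPM in MTX libraries and 88.6, 87.8, 96.4, 87.9 and 98.4 CPM in control libraries. Only MTX library 5 lay within the control range, and Psmc3 was not called in MTX against control (0.31, adjusted p = 0.0705) or MTX+nitrate against MTX (-0.29, adjusted p = 0.0797). Psmc3 overlaps Slc39a13 on the opposite strand.

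Among the remaining ATPases, MTX against control gave 0.28 for Psmc1, 0.24 for Psmc2, 0.34 for Psmc4 and 0.40 for Psmc5, with adjusted p-values between 0.0996 and 0.238. Among the non-ATPase subunits it gave 0.27 for Psmd1 and 0.28 for Psmd2, the scaffolds of the base, and 0.26, 0.20, 0.23 and 0.24 for the lid subunits Psmd7, Psmd8, Psmd11 and Psmd12. None of these 10 was called by edgeR in either comparison, and DESeq2 called Psmd8 lower in MTX+nitrate against MTX. All MTX+nitrate libraries lay below all MTX libraries for Psmd8 (-0.27, adjusted p = 0.0592).

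Some other regulatory subunits had larger fold changes without being called by edgeR, though DESeq2 called Psmd14 and Psmd4 higher under MTX and Psmd6 lower in MTX+nitrate against MTX. Psmd14, which removes ubiquitin chains from the substrate, stood at 0.43 in MTX against control (adjusted p = 0.0826). Psmd4, a ubiquitin receptor, stood at 0.36 (adjusted p = 0.0580). Psmd6, a lid subunit, stood at -0.37 in MTX+nitrate against MTX (adjusted p = 0.0517). Psmd3, also of the lid, differed least between those groups (-0.046, adjusted p = 0.856) and stood at 0.28 in MTX+nitrate against control (adjusted p = 0.214).

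Summed over subunits, the 14 core genes without Psma8 came to 938, 958, 1003, 975 and 1069.8 CPM in MTX+nitrate libraries, 1237, 1373, 1434, 1223 and 1048 CPM in MTX libraries and 895, 996, 985, 954 and 1020.5 CPM in control libraries. The 17 regulatory genes came to 1359.5, 1416, 1399, 1738 and 1527 CPM in MTX+nitrate libraries, 1628, 1934, 1918, 1780.5 and 1421 CPM in MTX libraries and 1377, 1445, 1463, 1332 and 1503 CPM in control libraries. For the core, MTX libraries 1 to 4 stood clear of every other library, and MTX library 5 exceeded all controls but not MTX+nitrate library 5. For the regulatory particle, MTX library 5 lay inside the control range and MTX+nitrate library 4 lay above MTX library 1. That MTX+nitrate library was the highest of its group for 13 of 17 regulatory subunits but for only 1 of 14 core subunits.

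**Figure D3:**
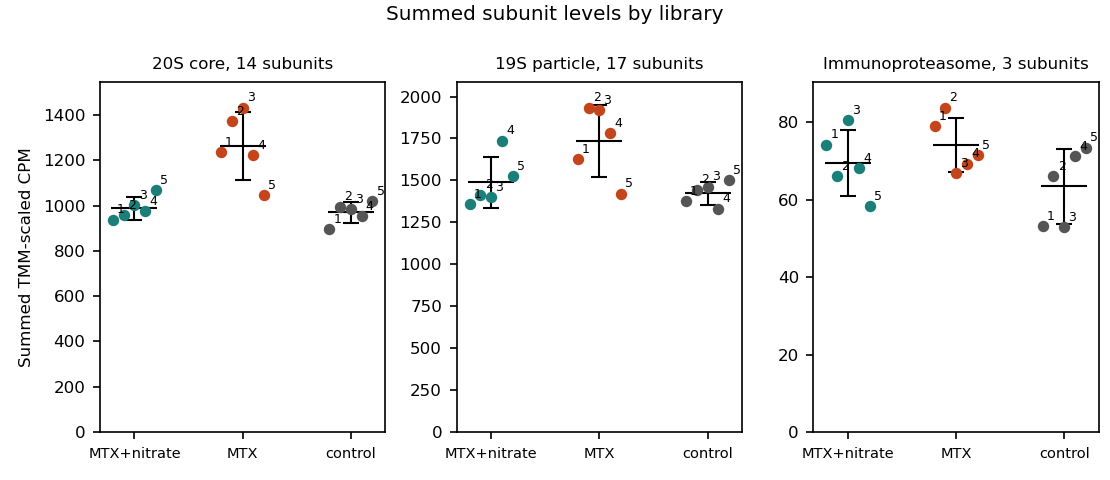
Summed TMM-scaled CPM of the 14 core, 17 regulatory and 3 immunoproteasome subunits in each library, with library numbers beside the points and the group mean ± SD over 5 libraries in black. Core sums average 989 ± 51.1 CPM in MTX+nitrate, 1263 ± 149.7 CPM in MTX and 970.2 ± 48.1 CPM in control libraries, and the immunoproteasome sums overlap in all 3 groups.

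The libraries of the MTX group were uneven. Of the 31 core and regulatory subunits, MTX libraries 2 and 3 were above all controls for 31, MTX library 4 for 29 and MTX library 1 for 24. MTX library 5 was above all controls for 11, within their range for 19 and below them for 1. It was the lowest MTX library for 11 of 14 core subunits and 16 of 17 regulatory subunits. That library was picked out by its low values in these same genes. Larger changes without it therefore follow from the choice and are no added evidence. Without MTX library 5, 23 members rose under MTX and 18 fell in MTX+nitrate relative to MTX. Over all genes the same fits called 995 and 569, against 521 and 613 with every library. In MTX against control without that library, the log2 fold change was 0.55 for Psmb3, 0.55 for Psmb4, 0.56 for Psma7, 0.42 for Psmd13, 0.38 for Psmc3 and 0.42 for Psmg1 (adjusted p between 0.00344 and 0.0259). In MTX+nitrate against MTX it was -0.46 for Psmb3, -0.46 for Psmb4, -0.51 for Psma7, -0.42 for Psmd13 and -0.37 for Psmc3 (adjusted p between 0.0131 and 0.0257), and Psmg1 was not called. Psmc3 and, under MTX, Psmg1 were called only in the fit without it among the 10 that left out 1 library.

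Each other library was also left out in turn, and calls over all genes are given beside those of the members. For MTX against control, 0 members were called higher without MTX library 1, MTX library 2 or control library 1, where 89, 86 and 112 genes were called in all. The number was 3 without MTX library 3, MTX library 4, control library 3 or control library 4 (389, 237, 192 and 248 genes), 5 without control library 5 (250 genes) and 6 without control library 2 (533 genes). For MTX+nitrate against MTX, the number called lower was 3, 1, 4, 4 and 11 without MTX+nitrate libraries 1, 2, 3, 4 and 5, where 280, 184, 285, 325 and 600 genes were called in all. It was 3, 2, 3 and 7 without MTX libraries 1, 2, 3 and 4, with 166, 219, 333 and 371 genes. Psmb1 stayed called lower in MTX+nitrate against MTX in all 10 fits that left out 1 library and in all 9 other alternatives, with an adjusted p of at most 0.0474. Under MTX, Psmb3 stayed called in 7 of 10 fits and in all 9 other alternatives. It was lost when MTX library 1, MTX library 2 or control library 1 was left out (adjusted p up to 0.0537). For both genes the 9 include the looser threshold of 0.1. A gene called at 0.05 cannot be lost there, so that alternative says nothing about stability.

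A trend on transcript length moved with the same libraries. For each library, log2 transcript length was correlated over genes with the deviation of expression from its mean over libraries. The coefficient ran from -0.160 to -0.129 in the first 4 MTX libraries and was -0.00549 in the fifth. It lay between -0.0412 and 0.136 in MTX+nitrate libraries and between -0.0283 and 0.108 in control libraries, over genes that are not independent replicates. The longest transcripts of the 31 core and regulatory genes had a median of 1819 bases, against 3183 bases for all tested genes.

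After a correction for length and GC content in each library, the median log2 fold change of the 48 members was 0.23 in MTX against control and -0.15 in MTX+nitrate against MTX. The core medians were 0.27 and -0.18, against 0.36 and -0.37 without the correction. Psmb3 (0.48 before and 0.38 after, adjusted p = 0.0284), Psmb7 and Psma3 remained called under MTX, and Psmb1 alone (-0.31, adjusted p = 0.0445) remained called in MTX+nitrate against MTX. Calls over all genes also dropped with the correction, to 283 and 212, so the 3 and 1 calls are read from shorter lists. Before the correction, log2 fold changes over 14208 genes also correlated with GC content. The coefficient was 0.11 in MTX against control, 0.13 in MTX+nitrate against MTX and 0.26 in MTX+nitrate against control. In the last comparison the correction moved the member median from 0.049 to 0.081 and the core median from 0.042 to 0.11. How far length-linked or GC-linked measurement and transcription each contribute was not tested.

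**Figure D4:**
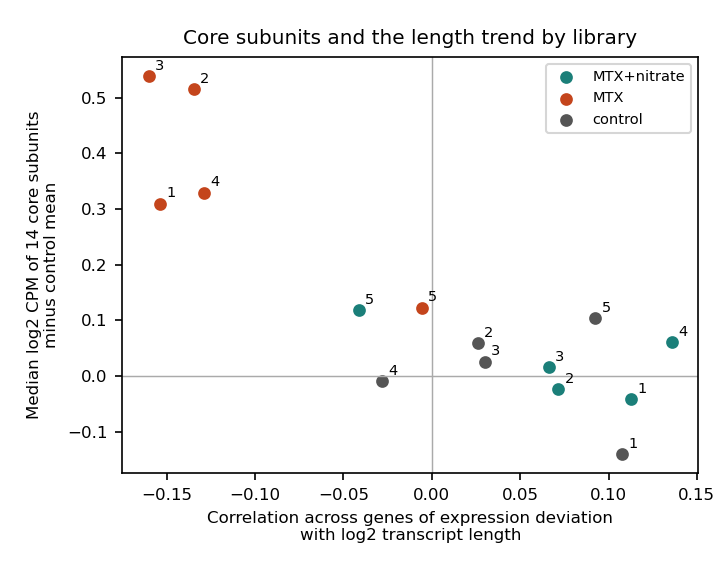
For each library, the horizontal axis gives the correlation of log2 transcript length with expression deviation over genes, and the vertical axis gives the median over 14 core subunits of log2 CPM minus the control mean. MTX libraries 1 to 4 form a separate cluster at the upper left, between -0.160 and -0.129 in length correlation, and MTX library 5 lies with the other groups, so no correlation over the 15 points is given.

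The log2 fold changes of the immunoproteasome subunits did not all have the same sign, and 0 of 3 were called in any comparison by edgeR. In MTX against control and MTX+nitrate against MTX the differing sign was that of Psmb9. As Psmb9 was not called, a difference between the 3 is not established. At an unadjusted p under 0.05, Psmb8 and Psmb10 were higher in MTX against control, Psmb8 was lower in MTX+nitrate against MTX, and Psmb10 was higher in MTX+nitrate against control. In the same order, 11.5%, 10.8% and 9.33% of all tested genes were so. DESeq2 called Psmb10 higher in MTX and in MTX+nitrate, each against control, and called none of the 3 in MTX+nitrate against MTX. Psmb10, the counterpart of Psmb7, had 33.97, 28.2, 33.6, 29.7 and 25.1 CPM in MTX+nitrate libraries, 33.2, 32.1, 30.7, 28.8 and 26.4 CPM in MTX libraries and 23.6, 25.9, 21.5, 23.4 and 25.04 CPM in control libraries. Every MTX library was above every control, and only MTX+nitrate library 5 reached down to the control range. Its log2 fold change was 0.34 ± 0.10 for MTX against control (adjusted p = 0.0591), 0.33 ± 0.10 for MTX+nitrate against control (adjusted p = 0.0783) and -0.0059 ± 0.10 for MTX+nitrate against MTX (adjusted p = 0.981).

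Psmb8, the counterpart of Psmb5, had 25.3, 22.5, 28.9, 21.6 and 20.1 CPM in MTX+nitrate libraries, 33.2, 37.3, 25.8, 25.9 and 32.7 CPM in MTX libraries and 17.3, 24.3, 20.7, 28.4 and 29.7 CPM in control libraries. All 3 groups overlapped, and Psmb8 stood at 0.36 in MTX against control (adjusted p = 0.167) and at -0.39 in MTX+nitrate against MTX (adjusted p = 0.139). Psmb9, the counterpart of Psmb6, had 14.9, 15.4, 18.1, 16.8 and 13.2 CPM in MTX+nitrate libraries, 12.5, 14.4, 10.4, 14.6 and 12.5 CPM in MTX libraries and 12.3, 15.9, 10.8, 19.4 and 18.8 CPM in control libraries. The groups overlapped, with control libraries 1 and 3 among the MTX values. Its log2 fold changes had the opposite sign to those of the core, at -0.26 ± 0.16 for MTX against control (adjusted p = 0.338) and 0.29 ± 0.16 for MTX+nitrate against MTX (adjusted p = 0.291). Neither was called, and the value against control was -0.17 without control library 4 and -0.37 without control library 3. Psmb9 and the peptide transporter gene Tap1 are neighbours on opposite strands and share 212 bases.

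Each immunoproteasome subunit was set against the constitutive subunit it replaces, as a log2 ratio of CPM within a library, in 9 two-sided exact permutation tests whose smallest p is 0.00794. The Psmb9 to Psmb6 ratio was -2.37, -2.35, -2.24, -2.30 and -2.72 in MTX+nitrate libraries, -3.07, -2.93, -3.44, -2.84 and -2.69 in MTX libraries and -2.38, -2.34, -2.88, -2.04 and -1.97 in control libraries. MTX values were mostly the lowest, with control library 3 and MTX+nitrate library 5 inside their range. The ratio differed by -0.67 for MTX against control (exact p = 0.0238, adjusted p over 9 tests = 0.0714) and by 0.60 for MTX+nitrate against MTX (exact p = 0.0159, adjusted p = 0.0714), so neither passed after adjustment.

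The Psmb10 to Psmb7 ratio was -0.99, -1.15, -0.95, -0.89 and -1.48 in MTX+nitrate libraries, -1.37, -1.44, -1.63, -1.50 and -1.45 in MTX libraries and -1.41, -1.45, -1.48, -1.52 and -1.39 in control libraries. MTX+nitrate libraries 1 to 4 stood above the others, and MTX+nitrate library 5 lay among them. The difference was 0.39 for MTX+nitrate against MTX and 0.36 for MTX+nitrate against control (exact p = 0.0317 and adjusted p = 0.0714 for each). Without MTX+nitrate library 5 these differences were 0.48 and 0.46, each with an adjusted p of 0.0238. That of Psmb9 to Psmb6 for MTX+nitrate against MTX was then 0.68, with the same adjusted p. Each of these 3 passed in only that 1 of the 10 settings that left out a library. In the other settings the adjusted exact p reached 0.107, 0.0893 and 0.0952 for them, in the order given. The Psmb8 to Psmb5 ratio differed by -0.0090 for MTX against control (exact p = 0.984) and by -0.14 for MTX+nitrate against MTX (exact p = 0.460), less than the spread within groups (SD 0.26 in MTX+nitrate, 0.34 in MTX and 0.25 in control, n = 5 each). Without MTX library 3 the difference for MTX+nitrate against MTX was -0.26, and without MTX+nitrate library 5 it was -0.049.

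**Figure D5:**
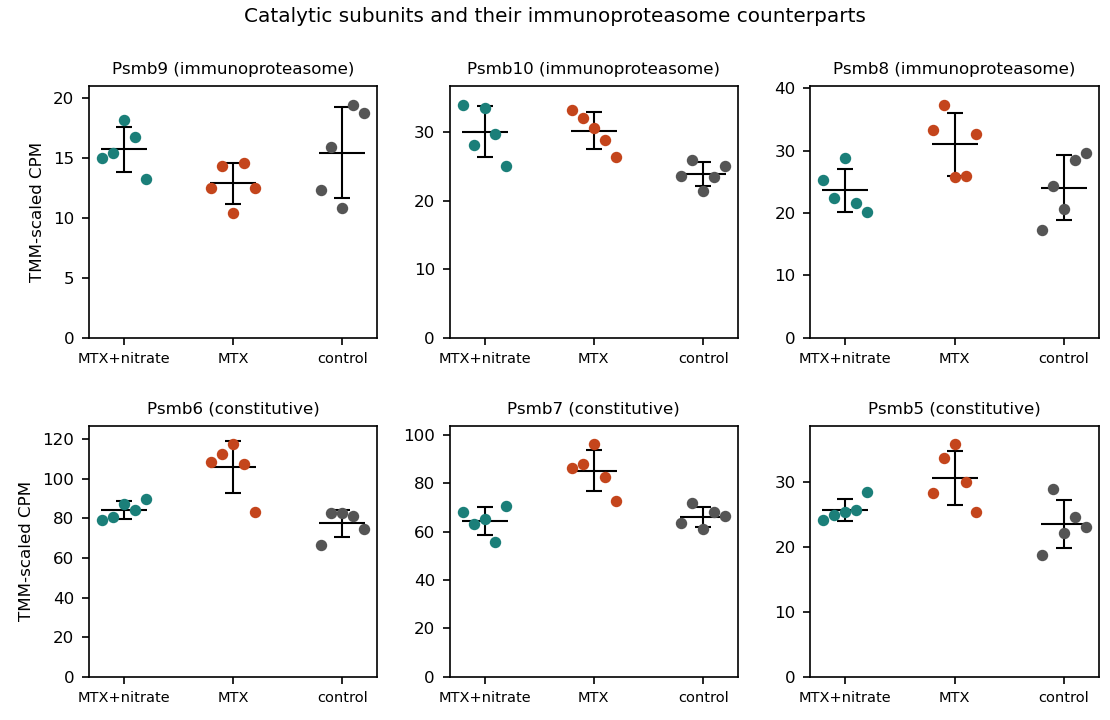
TMM-scaled CPM of the 3 immunoproteasome subunits (upper row) above the constitutive subunits they replace (lower row), with 1 point per library and the group mean ± SD over 5 libraries in black. Psmb6 and Psmb7 are higher in MTX than in control, Psmb9 averages 12.9 ± 1.71 CPM in MTX against 15.4 ± 3.81 CPM in control, and Psmb10 averages 30.1 ± 3.76 CPM in MTX+nitrate and 30.2 ± 2.71 CPM in MTX.

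Immune cells express immunoproteasome subunits, so markers of such cells were examined. Of 29 markers 19 were tested, and edgeR called 2 higher under MTX, Itgax (2.23, adjusted p = 0.0205) and Coro1a (1.12, adjusted p = 0.0273). In MTX+nitrate relative to MTX it called 2 lower, the neutrophil genes S100a8 (-2.96, adjusted p = 0.0395) and Mmp9 (-3.24, adjusted p = 0.0250). DESeq2 called 7 and 5, and limma-voom 0 and 0. At an unadjusted p under 0.05 with edgeR, 8 of the 19 were higher and 0 lower in MTX against control. In MTX+nitrate against MTX 1 was higher and 7 were lower. The shares of all tested genes were 11.5% and 10.5%, then 11.6% and 10.8%. The median log2 fold change of the 19 was 0.32 and then -0.34. In MTX+nitrate against control 3 were higher and 1 lower, against 9.33% and 8.25% of all tested genes, with a median of 0.14. The 29 markers summed to 284.8 to 443 CPM in MTX+nitrate, 329 to 471 CPM in MTX and 279 to 470.4 CPM in control libraries, and 0 of them were at 0 in all libraries. The part of immune cells in the immunoproteasome levels was not tested. Of 18 interferon response genes, 0 were called in any comparison by edgeR, DESeq2 or limma-voom, and 1, 0 and 1 had an unadjusted p under 0.05 in MTX against control, MTX+nitrate against MTX and MTX+nitrate against control. Those with the lowest p were Irf8 (0.46, adjusted p = 0.154) and Igtp (-0.39, adjusted p = 0.235) for MTX against control, and Cxcl10 (-0.95, adjusted p = 0.289) and Ifit3 (0.48, adjusted p = 0.300) for MTX+nitrate against MTX. Their median log2 fold change was -0.11 in MTX against control and 0.025 in MTX+nitrate against MTX.

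Among 15 genes of MHC class I and peptide loading, edgeR called 1 in MTX against control. Nlrc5, a transactivator known to raise MHC class I genes, Tap1 and Psmb9, averaged 13.8 ± 1.53 CPM in MTX and 21.8 ± 2.92 CPM in control libraries (SD, n = 5 each) and fell under MTX (-0.66 ± 0.13, adjusted p = 0.0165). Values above 0 in that comparison included those of H2-D1 and Tapbp. H2-D1, a classical MHC class I heavy chain, stood at 0.55 (adjusted p = 0.104) and Tapbp, which bridges MHC class I to the peptide transporter, at 0.31 (adjusted p = 0.0858), and DESeq2 called both higher and Nlrc5 lower. At an unadjusted p under 0.05, 4 of the 15 were higher and 2 lower in MTX against control, with a list median of 0.10. The matching shares over all tested genes were 11.5% and 10.5%. With MTX+nitrate against MTX edgeR called 0. Unadjusted, 2 were higher and 4 lower at a p under 0.05, against 11.6% and 10.8% of all tested genes. DESeq2 called Pdia3 lower there, and the median was -0.14. In MTX+nitrate against control edgeR called 0. Unadjusted, 3 were higher and 5 lower, against 9.33% and 8.25% of all tested genes, with a median of -0.026. The list summed to 3376 to 3844 CPM in MTX+nitrate, 4302 to 4623 CPM in MTX and 3748 to 4492 CPM in control libraries. Tap1 stood at -0.19 in MTX against control (adjusted p = 0.425) and at 0.40 in MTX+nitrate against MTX (adjusted p = 0.0908).

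The activators open the core without ubiquitin, and 0 of 5 were called in any comparison by edgeR. Unadjusted, 4 had a p under 0.05 and were higher in MTX against control and 2, Psme2 and Psme4, were lower in MTX+nitrate against MTX. Of all tested genes, 11.5% and 10.8% did so. Psme1 and Psme2 encode the interferon-inducible ring PA28. Psme1 had 67.00, 65.6, 73.4, 70.9 and 61.7 CPM in MTX+nitrate libraries, 75.8, 67.7, 78.3, 61.4 and 69.9 CPM in MTX libraries and 49.99, 60.5, 57.7, 67.1 and 59.97 CPM in control libraries. These groups overlapped (0.26 for MTX against control, adjusted p = 0.104). Psme2 had 31.98, 13.1, 16.8, 18.4 and 18.6 CPM in MTX+nitrate libraries, 41.2, 28.7, 31.1, 28.6 and 30.8 CPM in MTX libraries and 16.00, 27.5, 24.7, 25.4 and 23.3 CPM in control libraries. MTX libraries were all above the controls, and MTX+nitrate library 1 stood far above the rest of its group. The change was -0.70 ± 0.20 for MTX+nitrate against MTX (adjusted p = 0.0550), and it was called by DESeq2 and limma-voom.

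The transcripts of Psme2 and Psme2b, a single-exon copy, were 98.75% identical over 803 aligned bases, so reads may be split between them. In MTX+nitrate library 1 Psme2 was the highest and Psme2b the lowest of the group. Their sum was 45.1, 34.8, 42.2, 42.7 and 42.8 CPM in MTX+nitrate libraries, 63.4, 55.8, 59.05, 50.96 and 57.5 CPM in MTX libraries and 34.2, 45.1, 37.5, 45.6 and 48.05 CPM in control libraries, with every MTX library above every other. Psme4, the nuclear activator PA200, had 141, 133, 139, 140.4 and 76.3 CPM in MTX+nitrate libraries, 141, 171, 184, 152 and 163 CPM in MTX libraries and 173, 153, 153, 146 and 186 CPM in control libraries. All MTX+nitrate libraries were below both other groups, library 1 by less than 1 CPM against MTX library 1 and library 5 by far, and Psme4 was not called (-0.37 against MTX, adjusted p = 0.138, and -0.37 against control, adjusted p = 0.176). Psme3, a nuclear activator, stood at 0.21 in MTX against control and -0.11 in MTX+nitrate against MTX (adjusted p = 0.216 and 0.551).

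Psmf1, the proteasome inhibitor PI31, had 43.3, 37.96, 35.7, 40.1 and 37.01 CPM in MTX+nitrate libraries, 41.9, 39.8, 40.5, 39.7 and 34.6 CPM in MTX libraries and 38.6, 38.2, 44.6, 38.4 and 40.3 CPM in control libraries. Its log2 fold change was -0.027 ± 0.078 for MTX against control (adjusted p = 0.873), and its sign turned in some alternatives.

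Assembly chaperones, 4 of the core and 3 of the regulatory particle, were not called in any comparison by edgeR, DESeq2 or limma-voom. At an unadjusted p under 0.05, Psmg1, Psmd5 and Psmd10 were higher in MTX against control, 0 differed in MTX+nitrate against MTX, and Psmd9 was lower in MTX+nitrate against control. Among all tested genes, 11.5% were higher in the first, 11.6% higher and 10.8% lower in the second, and 8.25% lower in the third. Psmg1, which pairs with Psmg2 to build the alpha ring, had 20.3, 20.5, 23.3, 19.2 and 19.1 CPM in MTX+nitrate libraries, 26.6, 24.1, 24.3, 22.3 and 16.2 CPM in MTX libraries and 18.00, 21.9, 17.1, 18.2 and 15.6 CPM in control libraries. MTX library 5 was below 4 of the controls (0.32 for MTX against control, adjusted p = 0.139). Psmg4, another alpha-ring chaperone, had 6.29, 3.39, 3.49, 4.51 and 5.59 CPM in MTX+nitrate libraries, 7.03, 5.45, 6.06, 4.31 and 7.20 CPM in MTX libraries and 4.22, 5.40, 3.99, 6.63 and 4.25 CPM in control libraries, with full overlap. Psmg2 and Psmg3 stood at 0.041 and 0.17 in MTX against control (adjusted p = 0.862 and 0.540). Psmd10, also known as gankyrin, had 7.76, 9.65, 7.86, 7.75 and 9.82 CPM in MTX+nitrate libraries, 10.98, 10.8, 10.5, 8.06 and 9.26 CPM in MTX libraries and 5.67, 9.35, 7.60, 9.04 and 7.49 CPM in control libraries. Psmd5, another chaperone of the ATPases, stood at 0.24 in MTX against control (adjusted p = 0.190). For Psmd10 the groups overlapped (0.34 for MTX against control, adjusted p = 0.187). Psmd9 had 23.6, 25.9, 20.7, 17.04 and 24.9 CPM in MTX+nitrate libraries, 21.9, 21.1, 26.6, 30.4 and 29.8 CPM in MTX libraries and 31.2, 22.1, 29.9, 33.5 and 28.6 CPM in control libraries, and stood at -0.37 in MTX+nitrate against control (adjusted p = 0.165). Psmd9 overlaps Hpd on the opposite strand over 10921 bases, and Hpd had 423812 counts over all libraries against 6899 for Psmd9, so its level may hold reads of Hpd.

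Outside the symbol rule, 11 other proteasome and assembly genes were examined. Pomp, the chaperone that guides beta-ring assembly, averaged 93.7 ± 11.3 CPM in MTX and 71.8 ± 5.16 CPM in control libraries and rose (0.38 ± 0.09, adjusted p = 0.0319). In MTX+nitrate against MTX it stood at -0.29 (adjusted p = 0.0794). Uchl5, a deubiquitinating enzyme of the regulatory particle, averaged 10.7 ± 0.323 CPM in MTX+nitrate and 13.6 ± 1.19 CPM in MTX libraries and fell (-0.35 ± 0.091, adjusted p = 0.0403). The ubiquitin receptor Adrm1 was called by DESeq2 but not by edgeR (0.45 for MTX against control, adjusted p = 0.0757). DESeq2 also called Pomp and Txnl1, a thioredoxin-like protein bound to the regulatory particle, lower in MTX+nitrate against MTX. Medians of the 11 were 0.17 in MTX against control and -0.23 in MTX+nitrate against MTX.

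Of 15 genes that regulate proteasome genes, 0 were called in any comparison by edgeR or limma-voom, and DESeq2 called Keap1 higher in MTX against control. At an unadjusted p under 0.05 with edgeR, 1, 2 and 3 differed in MTX against control, MTX+nitrate against MTX and MTX+nitrate against control. They were 1 higher, 1 higher with 1 lower, and 3 higher, against 11.5%, 11.6% with 10.8%, and 9.33% of all tested genes. Lowest in p were Keap1 (0.40, adjusted p = 0.0566) and Nfyb (0.21, adjusted p = 0.403) for MTX against control, and Nfe2l2 (0.22, adjusted p = 0.165) and Ngly1 (-0.22, adjusted p = 0.184) for MTX+nitrate against MTX. Keap1 holds back Nfe2l2, and Ngly1 activates Nfe2l1 by removing its sugars. Nfe2l1 averaged 143 ± 17.6 CPM in MTX+nitrate, 148 ± 23.6 CPM in MTX and 135 ± 11.2 CPM in control libraries (0.13 for MTX against control, adjusted p = 0.519). Nfe2l1 is known to be controlled by cleavage and stability of its protein, which RNA levels do not measure. Among 15 ubiquitin and shuttle genes, Ubb, which encodes polyubiquitin, averaged 224 ± 27.5 CPM in MTX+nitrate and 297 ± 18.4 CPM in MTX libraries and fell (-0.41 ± 0.10, adjusted p = 0.0390). The other 14 were not called, and in MTX against control edgeR called 0 of the 15, with 5 higher at an unadjusted p under 0.05 and 3 called by DESeq2. Of all tested genes, 11.5% were higher at that p. In MTX+nitrate against control edgeR called 0 genes of these 3 lists, 6 had an unadjusted p under 0.05, and DESeq2 called 2, among them Ube3c. Over all tested genes, 9.33% were higher and 8.25% lower at that p.

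Levels were compared between genes per kilobase of the principal GENCODE M21 transcript. In control libraries, constitutive beta-ring subunits ran from 26.1 CPM per kb for Psmb5 to 108 for Psmb4, with a median of 63.0. Alpha-ring subunits other than Psma8 ran from 17.7 CPM per kb for Psma2 to 86.4 for Psma7, where Psma2 is divided by a transcript of 2911 bases. The ATPases ran from 30.7 CPM per kb for Psmc6 to 62.7 for Psmc1, and the non-ATPase subunits from 24.9 for Psmd14 to 74.5 for Psmd2. All 3 immunoproteasome subunits were below every constitutive beta subunit, at 18.2 CPM per kb for Psmb10, 14.8 for Psmb8 and 11.4 for Psmb9. The chaperones of the core lay between 7.42 and 17.4 CPM per kb, and those of the regulatory particle between 5.48 and 11.2.

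Hepatocyte markers were abundant in every library, with 0 of 8 called in any comparison by edgeR, DESeq2 or limma-voom and 0 at an unadjusted p under 0.05. Their sums were 79794 to 124811 CPM in MTX+nitrate, 111928 to 120190.0 CPM in MTX and 87841 to 118442 CPM in control libraries. Of 10 markers of endothelial, stellate and bile duct cells, Sox9 rose under MTX (1.20, adjusted p = 0.0467) and Kdr rose in MTX+nitrate relative to MTX (0.74, adjusted p = 0.0323). In MTX against control DESeq2 called the endothelial genes Stab2 (-0.41 by edgeR, adjusted p = 0.0730) and Kdr (-0.58, adjusted p = 0.0757) lower. There 2 of the 10 were lower at an unadjusted p under 0.05, against 10.5% of all tested genes, and the list median was -0.13. DESeq2 called Stab2 and Kdr higher and Sox9 lower in MTX+nitrate against MTX, where the median was 0.19. The list summed to 487 to 674 CPM in MTX+nitrate, 417 to 543 CPM in MTX and 522 to 711 CPM in control libraries. The part of cell composition in the subunit levels was not tested.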

How the data were processed

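The authors deposited 1 table of raw read counts per gene, with whole numbers and no normalization, covering 15 liver libraries. Per the labels' protocols, total RNA was purified on columns and libraries were made with a SMARTer mRNA kit. The build was GRCm38 (mm10), per the submitters' processing notes. How reads were aligned and counted, with which annotation and strand setting, is not given in the sources used here.

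Deposited counts were filtered with filterByExpr and scaled by TMM, and 14219 genes were fitted with edgeR 4.0.16 (R 4.3.3) over all 15 libraries, with 12 residual degrees of freedom and a common biological coefficient of variation of 0.223. At 2 CPM the smallest library holds 33.3 counts. Groups and replicate numbers came from the sample titles and treatment labels. Counts of the 30 library pairs within groups differed by 21.6 to 58.4 times sampling variance, so none was counted as a duplicate. Ratios of immunoproteasome to constitutive subunits used log2(CPM + 0.5) and exact permutation of 252 assignments. The edgeR fit and the removal of a length trend by the correction were tested on simulated counts, and the permutation test was not.

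The members and gene lists were chosen with earlier results of these data known. Named members were those called in any comparison (up to 12), the catalytic subunits and their immunoproteasome counterparts, and, in each role, the member with the lowest p in MTX against control and in MTX+nitrate against MTX. The remaining members, with Nfe2l1, Adrm1, Txnl1, Tap1, H2-D1, Tapbp, Pdia3 and Stab2, are given outside this rule, chosen after their values were seen. The alternatives tried were DESeq2 1.42.0, limma-voom (limma 3.58.1), size factors by median of ratios, fits without a filter on expression or with a floor of 1 CPM in 5 libraries, fits over only 2 groups or with the replicate number as a block, each library left out, a threshold of 0.1, and a smooth correction for GC content and transcript length (mgcv 1.9.3, longest GENCODE M21 transcript). Promoter windows are from RefSeq. Protein sequences were not used here. Values of some genes of the ubiquitin list are not reported here.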

Additional observations from a re-analysis of the deposited data

Results flagged for a closer look

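Among 78 groups of 5 libraries examined for the named members and the 3 ratios, 4 had a library farther from the rest than Dixon's 95% critical value of 0.71, and chance flags about 1 in 20 groups. Psmb1 stood at 159.4 CPM in MTX library 3, against 129.9 to 135.4 CPM in the other MTX libraries. Psme2 stood at 41.2 CPM in MTX library 1, against 28.6 to 31.1 CPM in the other MTX libraries, and at 32.0 CPM in MTX+nitrate library 1, against 13.1 to 18.6 CPM in the rest of that group. Its near-identical copy Psme2b was the lowest of the group in MTX+nitrate library 1, and the sum of both genes there was 45.1 CPM, against 34.8 to 42.8 CPM in the other MTX+nitrate libraries. The log2 ratio of Psmb9 to Psmb6 stood at -2.72 in MTX+nitrate library 5, against -2.37 to -2.24 in the other MTX+nitrate libraries.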

How the results depend on the processing

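The number of members called higher in MTX against control was 8, and it was 17 with DESeq2, 4 without the expression filter, 3 in a fit over 2 groups, 3 after the length and GC correction, 18 at an adjusted p under 0.1, and 0 to 23 with 1 library left out. The number called lower in MTX+nitrate against MTX was 10, and it was 16 with DESeq2, 6 without the filter, 1 over 2 groups (Psmb1), 1 after the length and GC correction, 17 at an adjusted p under 0.1, and 1 to 18 with 1 library left out. In MTX+nitrate against control DESeq2 called 1 member higher, as did an adjusted p under 0.1 (Psmb10), and no leave-out changed the 0. Median-of-ratios size factors, limma-voom and at least 1 CPM in 5 libraries kept all these counts within 1.5 times. Over all genes, 521 calls in MTX against control became 1141 with DESeq2, 283 after the length and GC correction, 1260 at an adjusted p under 0.1 and 86 to 995 with 1 library left out. The 613 calls in MTX+nitrate against MTX became 1167, 212, 1323 and 166 to 600 under the same alternatives, 384 without the filter and 248 over 2 groups. The 342 calls in MTX+nitrate against control became 752, 215, 751 and 99 to 312. The causes were not tested.

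A replicate block gave 3 members higher in MTX against control (Psmb3, Psmb4 and Psmb6), 1 lower in MTX+nitrate against MTX (Psmb1), and 142, 129 and 157 calls over all genes in MTX against control, MTX+nitrate against MTX and MTX+nitrate against control. Same-numbered libraries did not deviate together (correlations of -0.194 to 0.0636), and 0 libraries correlated best with their own number, so the numbers were not taken as pairs.

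Leaving out 1 library gave log2 ratio differences of -0.10 to 0.11 for Psmb8 to Psmb5 and -0.055 to 0.011 for Psmb10 to Psmb7 in MTX against control, -0.21 to 0.014 for Psmb9 to Psmb6 and 0.31 to 0.46 for Psmb10 to Psmb7 in MTX+nitrate against control, and -0.26 to -0.049 for Psmb8 to Psmb5, 0.49 to 0.68 for Psmb9 to Psmb6 and 0.34 to 0.48 for Psmb10 to Psmb7 in MTX+nitrate against MTX. No called member changed sign under any alternative. Signs of uncalled log2 fold changes near 0 turned with median-of-ratios factors and DESeq2 for Psmd13 in MTX+nitrate against control (-0.00255 and -0.00240), and at 1 CPM or more for Psmb10 in MTX+nitrate against MTX (0.000508). The length and GC correction turned Psmf1 in MTX against control (0.000755), Psmb10 (0.072), Psmd10 (0.034) and Psmg1 (0.042) in MTX+nitrate against MTX, and, in MTX+nitrate against control, Psmb7 (0.10), Psma3 (0.12), Psma2 (0.070), Psmc6 (0.038), Psma6 (0.068), Psma7 (-0.069), Psmd13 (-0.062), Psmb9 (-0.083) and Psmc3 (-0.082). With 1 library left out, values in MTX+nitrate against control were -0.017 to 0.049 for Psmd13, -0.079 to 0.12 for Psmb9, -0.021 to 0.053 for Psmc3, -0.12 to 0.061 for Psmb8, -0.21 to 0.058 for Psmg4, -0.064 to 0.0086 for Psma3, -0.069 to 0.014 for Psmb7 and -0.086 to 0.0036 for Psma6. They were -0.050 to 0.016 for Psmf1 in MTX against control, and -0.062 to 0.011 for Psmf1 and -0.052 to 0.053 for Psmb10 in MTX+nitrate against MTX. Counts over 15 libraries were 261 for Psma8 and 1380 for Psmg4, the lowest of the tested members, so counting error bears most on these.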
